A study of Mus musculus with 5 samples.

Results

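The clustered *Paupar* binding sites are the 357 CHART-Seq peaks, of 2849 deposited, whose midpoint lies at most 10 kb from the midpoint of another peak on the same chromosome. They were chosen by the measured positions of the peaks, and chains of such peaks formed 162 loci. The other 2492 peaks had no neighbour within this distance. In CHART-Seq, chromatin is crosslinked, an RNA is captured on biotinylated DNA oligonucleotides complementary to it, and the DNA that is retained is sequenced. The study used N2A cells, a mouse neuroblastoma line, with 2 *Paupar* pull-downs, 2 control pull-downs with an oligonucleotide against *LacZ* and 1 input DNA library, and the deposited result is a single list of peaks, each with its interval and 1 score. The list does not name the statistic behind the score. Values for single libraries are not part of it, so that no peak has a replicate error here, the number of reads behind a peak is unknown, and the intervals given are 95% Wilson intervals that cover counting error only. Coordinates are those of mm9.

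*Paupar* is a long non-coding RNA transcribed next to *Pax6*, the gene of a transcription factor needed for eye and forebrain development. RNAs of this class can act at the locus that makes them or at distant sites on other chromosomes. Tandem repeats, in which a short unit is copied head to tail, are common in the mouse genome, and a short read from inside one can often be placed at more than 1 position.

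The capture oligonucleotides are shown first, 5′ to 3′, because they are the designed sequences on which the pull-down rests and the members were searched for them.
*Paupar* 254: ggcttaagtccacccctggattcg
*Paupar* 428: gcctggaactagatcaaggcagag
*Paupar* 2041: ctctcagaaactgcgatacaaaag
*Paupar* 2067: gaggcctagtcaaaatatctccac
*LacZ*: catgattacggattcactggccgtc

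The next sequences show the tandem arrays on which some of the clustered peaks lay. They are the longest exact arrays of one member at 7 loci, read on the plus strand and limited to 4 copies of the unit, with every other copy in capitals.
*Mid1* locus, chrX:166424089-166424255, unit of 62 bases: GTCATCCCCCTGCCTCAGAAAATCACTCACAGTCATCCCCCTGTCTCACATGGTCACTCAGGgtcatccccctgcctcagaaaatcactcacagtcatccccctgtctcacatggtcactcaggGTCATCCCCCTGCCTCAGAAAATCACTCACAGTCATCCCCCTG
*Arid4a* locus, chr12:72191370-72191445, unit of 19 bases: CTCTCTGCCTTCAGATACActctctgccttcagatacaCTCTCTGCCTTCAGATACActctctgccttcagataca
*Zfp872* locus, chr9:21994237-21994328, unit of 23 bases: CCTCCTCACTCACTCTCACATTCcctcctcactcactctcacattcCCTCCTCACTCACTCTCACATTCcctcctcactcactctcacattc
*Nmi* and *Rbm43* locus, chr2:51803013-51803084, unit of 18 bases: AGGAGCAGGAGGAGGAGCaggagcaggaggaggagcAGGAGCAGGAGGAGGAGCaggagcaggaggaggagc
*Sema5b* locus, chr16:35643787-35643858, unit of 18 bases: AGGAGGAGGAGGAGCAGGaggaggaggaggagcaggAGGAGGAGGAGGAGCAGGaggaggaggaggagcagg
*Epha3* locus, chr16:63834140-63834187, unit of 12 bases: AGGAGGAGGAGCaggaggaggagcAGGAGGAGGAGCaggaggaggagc
*Tagap* locus, chr17:8104192-8104249, unit of 18 bases: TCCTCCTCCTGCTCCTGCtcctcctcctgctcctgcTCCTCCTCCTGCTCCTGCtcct
The arrays at *Nmi*, *Sema5b* and *Epha3* are variants of the same GGA and GCA triplets, and the array at *Tagap* holds them on the opposite strand. The arrays at *Mid1*, *Arid4a* and *Zfp872* have units of their own.

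Most loci were pairs. Of the 162 loci, 139 held 2 peaks, 17 held 3, 4 held 4 and 2 held 6, so that 79 of the 357 clustered peaks lay in loci of 3 or more. A locus spanned a median of 3674 bp, from 996 to 23079 bp, and peaks covered a median of 57.8% of that span. Among the 195 pairs of neighbouring members, midpoints were a median of 2174 bp apart, with a range of 590 to 9805 bp. The distances fell mainly at the short end, with 64 pairs over 1 kb and up to 2 kb apart and 7 pairs in the last kilobase below the limit. Between 10 and 20 kb there were 77 neighbouring pairs in the whole list, against the 195 below 10 kb.

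**Figure D1:**
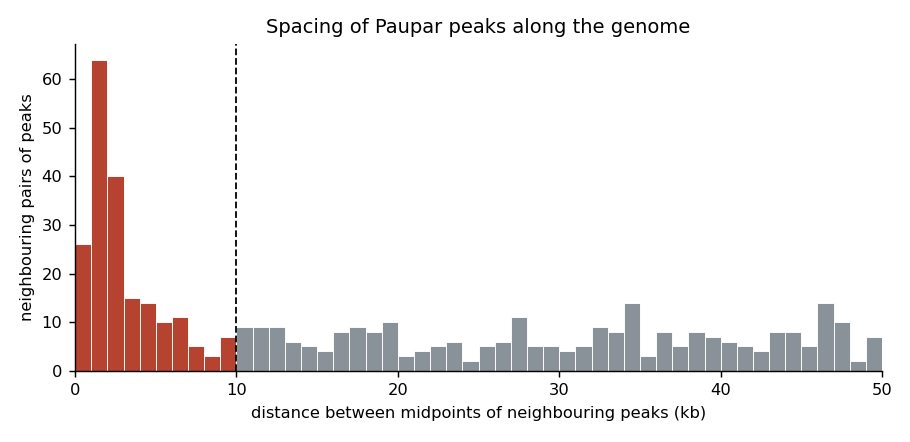
Number of neighbouring pairs of peaks (vertical axis) by the distance between their midpoints in kb (horizontal axis), in bins of 1 kb up to 50 kb. Red bars are the 195 pairs that form the loci and grey bars are pairs beyond the dashed line at 10 kb; the tallest bar holds the 64 pairs over 1 kb and up to 2 kb apart.

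The edges of neighbouring members were closer still. How the calls of the 2 pull-downs were joined, and which control set the borders, is not given in the sources used here, so that gaps and widths hold for the list as deposited. The gap between them was a median of 777 bp, 80 of the 195 gaps were at most 500 bp and 26 were at most 200 bp. The smallest gap, 18 bp, separated a peak of 391 bp with a score of 12.82 from one of 3161 bp with a score of 60.09 in an intron of *Creg1*, which encodes a secreted glycoprotein. The next gaps were 77 bp upstream of *Irf2*, an interferon regulatory factor, 113 bp in the domain of *Dsc3*, a desmosomal cadherin, 122 bp in *Mfap5*, a microfibril protein, and 144 bp between *Best3*, a chloride channel gene, and *Lrrc10*. The peaks on either side of these 4 gaps had scores of at most 16.29.

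The pair just inside the limit lay in an intron of *Grk5*, a kinase that desensitises G protein-coupled receptors, with midpoints 9805 bp apart and scores of 19.86 and 11.37. The pair just outside it lay upstream of *Drg2*, a GTP-binding protein gene, 10408 bp apart, with scores of 11.88 and 6.83. The second of these peaks is itself a member, since it has another neighbour at 2644 bp. These values describe where the rule falls and were not tested.

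The score and the width come from the same peak calls as the positions that chose the members and are given as a description. Clustered peaks had a median score of 13.63, from 5.96 to 305.37, and the other peaks a median of 12.52, from 5.34 to 133.32. Their median width was 674 bp, against 542 bp for the other peaks, and 97 of the 357 (27.2%, 22.8 to 32.0%) were wider than 1000 bp, against 409 of 2492 (16.4%, 15.01 to 17.9%). Clustered peaks made up 28 of the 74 scores of at least 50 in the list, and 10 of its 20 highest. Neighbours often differed in score. The highest score in a locus was a median of 1.78 times the lowest, at least 2 times in 65 loci and at least 5 times in 12. In the 139 loci of 2 peaks, the peak with the higher score was the wider in 80 and the narrower in 59.

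**Figure D2:**
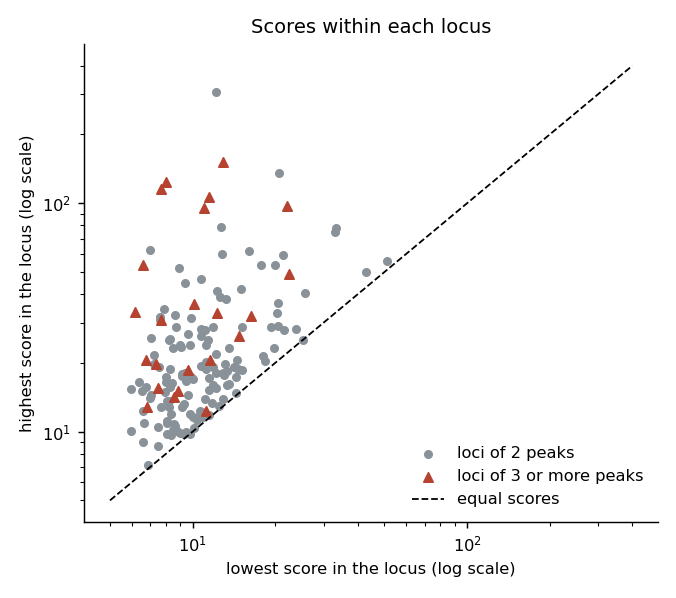
Highest score in each locus (vertical axis, log scale) against the lowest score in the same locus (horizontal axis, log scale) for the 162 loci. Grey circles are loci of 2 peaks, red triangles loci of 3 or more, and the dashed line marks equal scores; the highest point is the *Scn8a* locus, with scores of 305.37 and 12.17.

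The largest locus lay at *Mid1*, which encodes a microtubule-associated ubiquitin ligase and spans the pseudoautosomal boundary in the laboratory mouse. It ran over 23079 bp (chrX:166423802-166446880) and held 6 peaks, with scores of 22.03, 76.30, 93.75, 71.63, 96.47 and 97.29 in order along the chromosome. The 5 peaks after the first all had scores above 70 and widths of 2104 to 5396 bp, and the last lay in a 3′ flank. The first 2 lay within 5 kb of the annotated start of the predicted gene *Gm17379*. Neighbours in this locus shared exact runs of 57 to 341 nt. In 5 of the 6 peaks at least 25% of the 16-mers, all overlapping windows of 16 bases, recurred within the same peak. The most frequent distance between copies was 31 bp or a multiple of it in all 6.

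The other locus of 6 peaks lay in intergenic sequence upstream of *Tagap*, a GTPase-activating protein gene of T cells, from 12685 to 20982 bp before its start (chr17:8097723-8106563). Its scores were 11.02, 29.75, 61.12, 28.23, 95.38 and 23.56. It had 2 sequence classes side by side. The first 2 peaks held no repeated 16-mer, but every 31-mer in them, counted in the same way, had more than 1 copy in the genome, with a median of 2 copies. In the other 4 peaks, 49.4% to 61.3% of the 16-mers were repeated, GC content was 62.7% to 63.8%, and the repeats were the triplet array shown above.

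The 4 loci of 4 peaks also differed from each other in sequence. At *Arid4a*, which encodes a chromatin protein that binds the retinoblastoma protein, the peaks had scores of 26.13, 22.04, 14.80 and 18.69, all had 19 bp as the most frequent distance between copies, and 95.3% to 96.2% of the 31-mers in the 3 gaps between them had more than 1 copy. At *Zfp68*, a zinc finger gene, the scores were 44.95, 106.71, 28.26 and 11.48, the peaks lay in introns and a UTR, and no more than 5.005% of their 16-mers were repeated. Near *Gm9866* on chromosome 12 the scores were 53.38, 45.27, 14.96 and 6.60. Of these, 3 lay also in the regulatory domain of *Sox11*, a transcription factor of immature neurons, whose start lies 170832 bp from the nearest member. The regulatory domain of a gene reaches at least 5 kb before and 1 kb after its start. It is lengthened on each side, for up to 1 Mb, until it meets this shortest stretch of a neighbouring gene. The domains of neighbours can therefore overlap. In intergenic sequence between *Gm5087* and *Cadps*, a gene for priming of dense-core vesicle release, the scores were 10.38, 14.13, 13.22 and 8.57. The nearest protein-coding start was 140787 bp away.

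**Figure D3:**
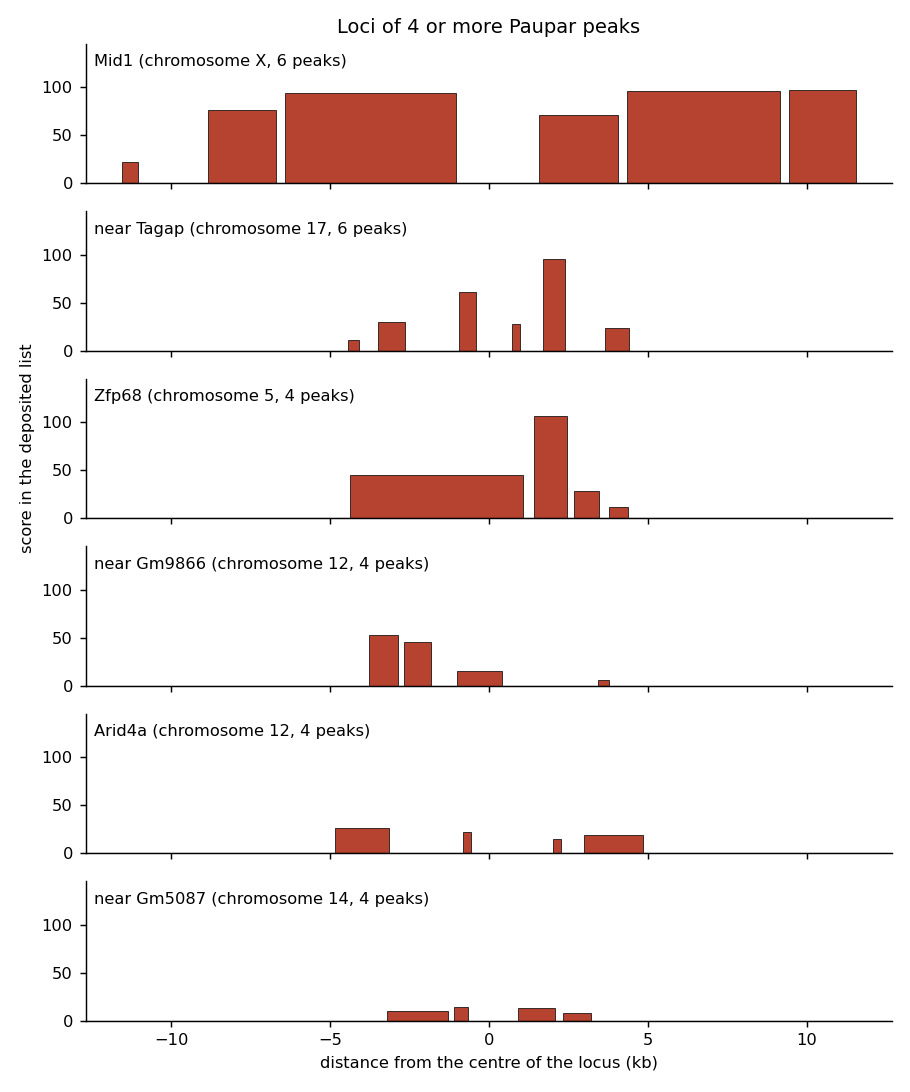
Peaks of the 6 loci of 4 or more peaks, drawn to scale along the distance from the centre of each locus in kb (horizontal axis), with the score of each peak as the height of its box (vertical axis, same scale in all panels). The *Mid1* locus spans 23079 bp with 5 scores above 70, whereas the locus near *Gm5087* has no score above 14.13.

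The 8 loci with the highest scores included *Mid1*, *Tagap* and *Zfp68*. The highest score of the whole list, 305.37, belonged to the widest clustered peak (9443 bp, chr15:100745135-100754577), 14005 bp upstream of *Scn8a*, which encodes a voltage-gated sodium channel of neurons. Its neighbour across a gap of 342 bp had a score of 12.17. The second highest, 151.88, lay in the 3′ flank of *Peg10*, an imprinted gene derived from a retrotransposon, with neighbours of 12.93 and 19.11. The third, 135.15, lay 147119 bp upstream of *A230072I06Rik* beside a peak of 20.56, and 59.4% of its 16-mers were repeated. In intergenic sequence between *Gm4889* and *Dusp4*, a MAP kinase phosphatase gene, scores of 8.01, 124.13 and 64.44 stood in a row. In an intron of *Thada*, whose regulatory domain is shared with *Zfp36l2*, an RNA-binding protein that promotes mRNA decay, the scores were 7.70, 114.93 and 19.93. In these 5 loci a peak of over 100 thus stood beside at least 1 member with a score of at most 20.56.

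Most members lay away from gene starts. The midpoint was within 5 kb of a protein-coding gene start for 41 of 357 clustered peaks (11.5%, 8.58 to 15.2%), for 419 of 2492 other peaks (16.8%, 15.4 to 18.3%), and for 16.1% of all peaks. It was inside a protein-coding gene body for 159 of 357 (44.5%, 39.5 to 49.7%) and for 1184 of 2492 others (47.5%, 45.6 to 49.5%), beside 47.1% of all peaks. By territory, 171 clustered peaks (47.9%) were intergenic and 143 (40.1%) intronic, against 40.9% and 43.9% of the other peaks. The median distance to the nearest protein-coding start was 27923 bp for clustered and 32110 bp for other peaks. In 64 loci all members lay in gene bodies, in 83 none did, and 139 of the 162 loci had no member within 5 kb of a start. Counted as 1 peak per locus, 19 of 162 (11.7%, 7.64 to 17.6%) were within 5 kb of a start.

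In 14 loci, 2 or more members had the same nearest protein-coding start and lay within 5 kb of it. In 6 of them midpoints fell on each side of it. At *Rara*, the retinoic acid receptor alpha gene, they were 2018 bp upstream and 375 bp downstream, with scores of 17.11 and 11.45. At *Pigv*, an enzyme of glycosylphosphatidylinositol anchor synthesis, a peak of 62.41 lay 1140 bp downstream and one of 7.0 lay 1698 bp upstream. At *Hif3a*, a hypoxia-inducible factor gene, the scores were nearly equal, 10.12 and 10.37. *Flrt3*, a neuronal adhesion and axon guidance protein gene, had scores of 6.61 and 9.03, with the second midpoint 94 bp upstream of the start. *Derl3*, of endoplasmic reticulum-associated degradation, had 28.90 and 20.39, and *Vpreb3*, a pre-B cell gene, 8.61 and 10.61. In the other 8 the members lay on 1 side. These were *Creg1*, *Fmnl1*, a formin gene, *Cpsf4*, of mRNA 3′ end processing, *Gramd4*, *Drg2*, and the predicted genes *Gm17684*, *Gm17266* and *Gm17379*. Apart from *Pigv*, *Creg1* and *Gm17379*, no member at these 14 starts had a score above 33.07.

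Of the genes that the study names beside CHART-Seq, *Pax6* and *Jhdm1d*, the annotation's name for *Kdm7a*, are described here, each with a locus in its regulatory domain. For both genes the 2 clustered peaks were the only peaks of the domain. Upstream of *Pax6*, peaks of 10.76 and 19.32 lay 122040 and 120288 bp before the start, in intergenic sequence towards *Rcn1*, an endoplasmic reticulum calcium-binding protein gene. The study places the *Paupar* gene far closer to *Pax6* and reports enrichment of *Paupar* at that gene. These 2 peaks lay outside it. They shared an exact run of 48 nt, and every 31-mer in the 194 bp between them had more than 1 copy. The shared run, on the plus strand at chr2:105387289-105387336, starts again at 105387694 and is printed because it begins and ends with the same bases.
*Pax6* locus: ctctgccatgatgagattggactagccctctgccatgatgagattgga
Between *Jhdm1d*, which encodes a histone demethylase, and *Slc37a3*, peaks of 9.32 and 13.26 held no repeated 16-mer and shared no more than 10 nt. *Sox2*, *Hes1*, *E2f2*, *E2f7*, *Cdkn2c*, *Nanog*, *Hes5*, *Rbpj* and *Lif* each had 1 or 2 peaks in their domain, none of them clustered. *Cdc6* and *Sox1*, whose peaks the study also placed in reporters, were not among the genes looked up.

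The domains of the 162 loci held 301 of the 22380 protein-coding genes, and 16 genes had 2 loci. Of 12 gene lists, with 33 to 160 annotated genes each, the ion channel list gave the largest number of loci. It held 131 genes, and the counts were not adjusted for list size. Genes of voltage-gated and related ion channels lay in the domain of 9 loci (5.56%, 2.95 to 10.2%), and 19 of 357 clustered peaks (5.32%) against 72 of all 2849 peaks (2.53%) had such a gene. They were *Scn8a*, the calcium channel genes *Cacna1b*, *Cacna1e* and *Cacna1i*, and the potassium channel genes *Kcnj12*, *Kcnj4*, *Kcnk16*, *Kcnk5* and *Kcns3*. In an intron of *Cacna1b*, scores of 8.94 and 52.03 stood 300 bp apart, and these peaks lay in the domain of *Pax8*, a paired-box factor of thyroid and kidney, as well. *Cacna1i* had a locus in its own body, with scores of 11.29 and 10.40, and another in the neighbouring gene *Enthd1*. The 3 peaks at *Kcnk16* had scores of 22.43, 48.98 and 47.50.

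Genes of the axon guidance and adhesion list lay in the domain of 5 loci (3.09%, 1.33 to 7.02%), with 3.08% of clustered and 2.25% of all peaks. *Flrt3* and *Dsc3*, described above, also lay in domains of loci but were not on this list. At *Epha3*, an ephrin receptor gene, and *Sema5b*, a semaphorin gene, the members were intronic. *Nrp1*, a semaphorin and VEGF co-receptor gene, had intronic peaks of 14.13 and 19.12, and *Odz3*, a teneurin gene, intronic peaks of 25.86, 10.13 and 36.33. Sox, Pax, Fox and Pou factors gave 3 loci, namely *Pax6*, *Pax8* and *Sox11*, with 1.96% of clustered and 1.61% of all peaks. The chromatin regulator list gave 3, namely *Arid4a*, *Jhdm1d* and *Smarcb1*, with 1.96% and 1.83%. It did not hold *Jmjd1c*, *Arid2* and *Whsc1l1*, which lay in domains of loci as well. The TGF-beta and BMP list gave 2, at *Fstl1* and *Smad2*, with 1.12% and 0.983%. These shares lay near that of all peaks. Lists of other homeodomain factors, basic helix-loop-helix factors, the Notch and Wnt pathways, cell cycle regulators and neurotransmitter receptors gave 0 of 162 loci each, with a Wilson upper limit of 2.32%. Of all 2849 peaks these lists had 1.54%, 0.948%, 0.246%, 0.772%, 0.386% and 0.772%. Some lists held only part of their class, and a 0 covers the listed genes only. The basic helix-loop-helix genes *Helt*, *Sim2* and *Hif3a* lay in domains of loci but were not on that list. The same held for the histamine receptor gene *Hrh1*, for neuropeptide receptor genes such as *Tacr2* and *Oprd1*, and for the cell cycle gene *Cdc16*. No list was tested for a difference.

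The number of loci differed between chromosomes. Chromosome 8 held 24 loci and chromosome 15 held 16, which is 18.2 and 15.5 loci per 100 Mb. Of the 150 peaks on chromosome 15, 33 (22.0%) were clustered, and of the 291 on chromosome 8, 53 (18.2%). In the whole list, 357 of 2849 peaks were clustered. Chromosome 8 is 131.7 Mb long and chromosome 15 is 103.5 Mb. Neither the loci nor the shares were adjusted for how densely peaks lay on a chromosome. Chromosome X had 11 of its 32 peaks (34.4%) in 3 loci, 6 of these peaks at *Mid1*. On chromosomes 1, 2, 3, 5, 7 and 19 the share was between 6.99% and 8.17%.

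Sequence copied within the peak, as in the arrays printed above, marked a minority of clustered peaks but a larger share than of the others. At least 25% of the 16-mers recurred within the same peak in 58 of 357 clustered peaks (16.2%, 12.8 to 20.4%) and in 156 of 2492 others (6.26%, 5.37 to 7.28%), beside 7.51% of all peaks. At least 50% recurred in 38 clustered peaks (10.6%, 7.85 to 14.3%) and in 47 others (1.89%, 1.42 to 2.50%). No 16-mer recurred in 202 clustered peaks (56.6%, 51.4 to 61.6%) and in 1769 others (71.0%, 69.2 to 72.7%). A wider peak has more room for a repeat. Among peaks of at most 1000 bp, the shares at 25% were 13.5% (9.84 to 18.1%) of 260 and 4.42% (3.62 to 5.39%) of 2083, and among wider peaks 23.7% (16.4 to 33.1%) of 97 and 15.6% (12.4 to 19.5%) of 409. Taking only the highest-scored peak of each locus gave 28 of 162 (17.3%, 12.2 to 23.8%). The 58 peaks lay in 41 loci, and in 6 of these loci every member was repeated to this extent. The most frequent step between copies was 6 to 100 bp in 53 of the 58, at most 5 bp in 2 and over 100 bp in 3. The intervals of clustered and other peaks do not overlap in all peaks and in the narrower ones, and they overlap in the wider ones; no test was run.

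Sequence with several copies anywhere in the genome was counted next. At least 25% of the 31-mers had more than 1 copy in 74 clustered peaks (20.7%, 16.8 to 25.2%) and in 186 others (7.46%, 6.50 to 8.56%), beside 9.13% of all peaks. The gaps between members were more repeated than the members. In 129 of the 195 gaps the share of such 31-mers was above the mean of the adjoining peaks and in 44 below it, and it was at least 50% in 49 gaps and 100% in 11. In the 80 gaps of at most 500 bp the mean share was 38.4%, and in the 26 gaps over 5000 bp it was 13.6%. Reads without a unique best placement had been discarded by the study, and the part of this filter in where peaks end was not tested.

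Flanks of the same width as the peak, leaving out those that touch another peak, gave a local comparison. For the 345 clustered peaks with a flank, GC content was 49.99% in the peak and 46.4% in the flank on average, higher in the peak for 251 and lower for 92. For the other peaks the means were 48.2% and 45.4%. Repeated 16-mers made up 11.4% of clustered peaks and 7.32% of their flanks, and 4.45% of other peaks and 2.71% of theirs. These means rest on a minority of peaks, since the share was higher in the peak for 115 clustered peaks, lower for 123 and equal for 107, and among other peaks higher for 573, lower for 952 and equal for 967. Multi-copy 31-mers made up 14.6% of clustered peaks and 14.2% of their flanks, with the peak higher for 101 and lower for 169. In other peaks they made up 6.13%, and in their flanks 8.18%. The sequence around the clustered peaks was thus repeated too.

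**Figure D4:**
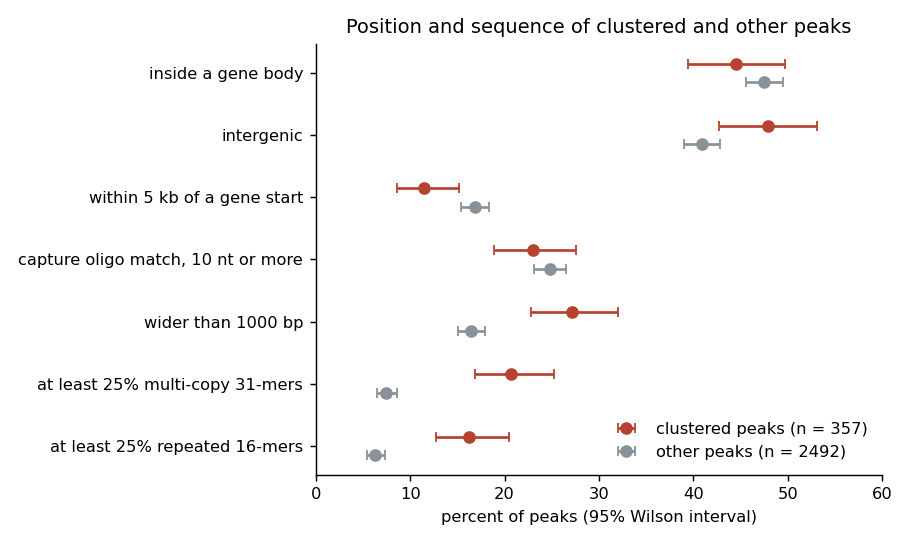
Percent of peaks (horizontal axis) with each feature of position or sequence (vertical axis), for the 357 clustered peaks in red and the 2492 other peaks in grey; bars are 95% Wilson intervals, for counting error only. Gene body and capture oligonucleotide shares overlap, while repeated 16-mers (16.2% and 6.26%) and multi-copy 31-mers (20.7% and 7.46%) lie apart.

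Neighbouring members shared a longest exact run with a median of 11 nt, and 39 of 195 pairs shared at least 31 nt and 7 at least 100 nt. Of the 39, 24 were pairs with a gap of at most 500 bp. The longest were at *Mid1*, with runs of 341, 171 and 171 nt, followed by 138 nt upstream of *Zfp872*, a zinc finger gene, and 116 nt in *Pfkfb4*, a regulator of glycolysis. Peaks of 50.24 and 42.83 at *Nmi*, an N-myc interactor gene, shared 104 nt, and members in *Gm17266* 100 nt. All of these runs were on the same strand in both members.

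A purine-rich array recurred across loci. Among the 12-mers counted on both strands, AGGAGGAGGAGC was the one found in most loci that is not itself a repeat of 2 or 3 bases. It was in 42 of 357 clustered peaks (11.8%, 8.82 to 15.5%), in 29 loci on 16 chromosomes, and in 79 of 2492 other peaks (3.17%, 2.55 to 3.93%). In the upstream flanks of the same width it was in 6.42% of 265 regions beside clustered peaks and in 1.20% of 2491 beside others. Among peaks of at most 1000 bp it was in 22 of 260 clustered (8.46%) and 32 of 2083 others (1.54%). The related 12-mer AGGAGGAGGAGG, which differs in its last letter and overlaps the first in an array, was in 12.3% and 3.93%. As a simple repeat for comparison, CACACACACACA was in 8.96% of clustered and 7.95% of other peaks. The 12-mer was picked after its counts were seen, and these shares are a description.

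In all 42 peaks the copies of AGGAGGAGGAGC lay on 1 strand only, with a median of 13.5 copies in a peak. The largest number, 67, was in the peak of 50.24 beside *Nmi*, and *Epha3* had 30 and 14 in its pair of peaks. The 4 repeat peaks upstream of *Tagap* had 12, 9, 17 and 19 on the minus strand. A peak of 33.32 in *Tbc1d5* had 42, the third *Odz3* peak 43 and the 3 peaks at *Kcnk16* 13, 21 and 13. The *Scn8a* peak and the peaks near *Gm11733* and *Synpo* had a single copy, which can lie on 1 strand only. In 10 of the 29 loci 2 or more members held it, and in 33 of the 42 peaks at least 25% of the 16-mers were repeated.

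**Figure D5:**
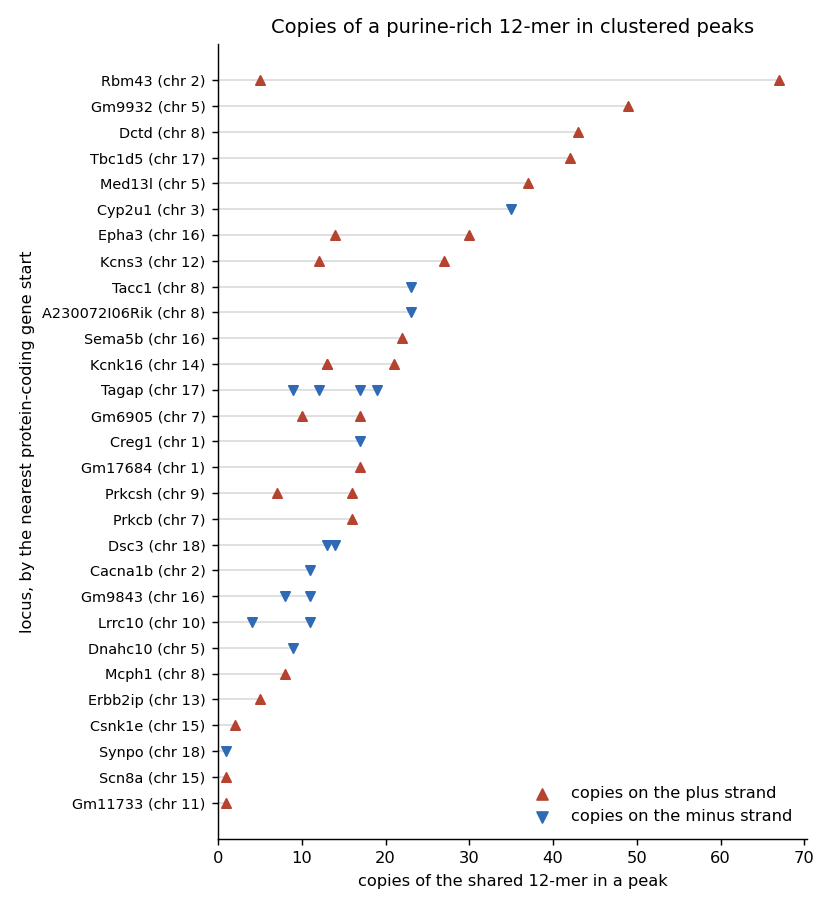
Copies of AGGAGGAGGAGC in each of the 42 clustered peaks that hold it (horizontal axis), by locus (vertical axis, named by the nearest protein-coding gene start). Upward red triangles are copies on the plus strand and downward blue ones on the minus strand, and points of equal value in a locus overlap; each locus has 1 colour, with copies from 1 to 67 in a peak.

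The members were then searched for the capture oligonucleotides printed above. An exact match of at least 10 nt to a *Paupar* oligonucleotide, on either strand, was present in 82 of 357 clustered peaks (22.97%, 18.9 to 27.6%), in 618 of 2492 others (24.8%, 23.1 to 26.5%) and in 24.6% of all peaks. Among peaks of at most 1000 bp the shares were 18.5% (14.2 to 23.6%) of clustered and 23.3% (21.5 to 25.1%) of other peaks. Among wider peaks they were 35.1% (26.3 to 45.0%) and 32.5% (28.2 to 37.2%). By oligonucleotide, 27 clustered peaks (7.56%, beside 8.21% of all peaks) matched *Paupar* 254 and 22 (6.16%, beside 6.11%) matched *Paupar* 428. *Paupar* 2041 was matched in 20 (5.60%, beside 6.81%) and *Paupar* 2067 in 19 (5.32%, beside 5.55%). The *LacZ* oligonucleotide was matched in 1 (0.28%, beside 0.28%). Each share lay near that of all peaks. In the 4 peaks upstream of *Tagap* with the triplet array, the longest match was at most 6 nt, and in the first 2 peaks of that locus it was 9 and 8 nt. In the central 200 bp, 24 clustered peaks (6.72%, 4.56 to 9.81%) and 262 others (10.5%, 9.37 to 11.8%) had a match. Of 187 clustered peaks with both flanks, 37 matched within the peak, 16 in the upstream and 14 in the downstream flank of the same width; for 2489 other peaks these shares were 24.8%, 10.004% and 9.32%. In 16 loci 2 or more members held a match, in 46 a single member did, and in 100 none.

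Only 5 clustered peaks (1.40%, 0.600 to 3.24%) had a match of 12 nt or more, against 45 of the others (1.81%, 1.35 to 2.41%). Of the 5, 4 are printed with the match in capitals and 14 bases on each side, in the direction of the oligonucleotide.
*Paupar* 2067 near *Gm11733*, minus strand, chr11:117408082-117408121: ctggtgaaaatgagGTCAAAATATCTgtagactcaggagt
*Paupar* 2067 near *Cblb*, plus strand, chr16:51676662-51676701: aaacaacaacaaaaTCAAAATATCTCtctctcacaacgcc
*Paupar* 2041 near *Fgd5*, plus strand, chr6:91898555-91898595: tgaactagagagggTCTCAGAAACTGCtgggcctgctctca
*Paupar* 254 in *Odz3*, plus strand, chr8:49328820-49328859: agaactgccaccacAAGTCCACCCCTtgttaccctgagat
The 13 nt match near *Fgd5*, a guanine exchange factor gene, was the longest. Scores of these 4 peaks were 38.18, 8.32, 14.04 and 10.13 in the order printed. Near here names the closest protein-coding start, whatever its distance. The midpoint lay 62128 bp from the start of *Gm11733*, 355186 bp from that of *Cblb* and 30606 bp from that of *Fgd5*.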

How the data were processed

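The authors mapped paired-end reads of 2 *Paupar* pull-downs, 2 *LacZ* pull-downs and 1 input library to mm9 (Bowtie), discarded reads without a unique best placement, and used MACS2 to call peaks of each *Paupar* pull-down against its *LacZ* control and against input. They deposited a single list with start, end and a score for each peak. The methods keep calls with a −log10 q above 5 and rank peaks by their MACS2 score; the smallest deposited score was 5.34, but the list does not name its statistic, so the score served only to describe and rank peaks. Versions of Bowtie and MACS2 are not given in the sources used here. Depth is unknown and replicates cannot be compared.

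Members and gene lists were chosen with earlier results of these data known. Loci named in the text were those of at least 4 peaks, the 8 with the highest scores and the 5 pairs with the smallest gaps. Also named were the 5 pairs with the longest shared runs, the pairs on either side of 10 kb and loci with 2 peaks at the same nearest gene start. Loci of the looked-up genes that the study names were added. A locus among these is not reported here. Loci named for a gene list, the 12-mer or an oligonucleotide match were chosen after their values were seen. Features were computed from the NCBIM37 genome and GENCODE annotation of that assembly, which mm9 denotes. Exact matches, shared runs and 31-mer copies were read on both strands, and 16-mers repeated within a peak on 1 strand. Functions were tested on simulated data, and all 7 checks gave the planted answer. No test was run, since the list has no values per library. Software comprised Python 3.11.15, samtools 1.23.1, numba 0.67.0, pysam 0.24.0, scipy 1.17.1, pandas 2.3.3, numpy 2.4.6 and matplotlib 3.10.9.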

Additional observations from a re-analysis of the deposited data

How the results depend on the processing

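The peak list has no values per library, so no replicate could be left out in turn. No paired analysis was possible because the single list carries no replicate columns and no result comes from a test. Of 48 alternatives for 9 results, 36 stayed within 1.5 times a count or within the interval of a share or median. With peaks of a score of at least 10 only, the clustered peaks fell to 211 in 95 loci, 13 of them of 3 or more peaks, with a median score of 17.97, a median width of 790 bp, 39.3% in gene bodies and 21.8% with at least 25% of 16-mers repeated. The counts are lower because fewer peaks entered, and the cause of the changed shares was not tested. With a joining distance of 20 kb, 38 loci had 3 or more peaks and 12.4% of members were repeated to this extent. With all annotated genes, 15.7% lay within 5 kb of a start. A match of at least 12 nt to an oligonucleotide was in 1.40%, and one of at least 10 nt in the central 200 bp in 6.72%. The alternatives for the share of repeated 16-mers were chosen after seeing the data; with 12-mers it was 17.9%, with 24-mers 13.7% and without the *Mid1* locus 15.1%. The depth of the libraries, and so what a peak missing from the list means, is unknown.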
